A study of Mus musculus with 159 samples.

Results

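Ficolin A (Fcna) and the collectins Colec10 and Colec11, pattern recognition genes of the lectin complement pathway, were followed in mouse liver by spatial transcriptomics. They were chosen by name, with earlier results of these data known, and are 3 of the 607 genes analysed. Each has a value in every segment, in some of them of only 1 count, which does not by itself show that the gene was detected. The livers came from 4 wild-type C57BL/6 mice, male and female mice both having been used in the study and the sex of each of these livers not being stated. The study's methods gave all 4 mice CCl4, a hepatotoxin that causes fibrosis, for 6 weeks from an age of 8 weeks, and gave 2 of them MARCO+ bone marrow-derived macrophages by tail vein at weeks 3 and 5 and the other 2 saline. The deposited labels instead call livers 1 and 3 treated CCl4 and livers 2 and 4 control, and they do not say which livers received cells. The pairs are therefore called the livers labelled treated CCl4 and the livers labelled control. Regions of interest (ROIs) were picked by hand on IBA1 and MARCO staining and classed as MARCO-high or MARCO-low. Each was divided into DESMIN+ (HSC, 41 segments), MARCO+IBA1+ (MARCO+, 45), MARCO-IBA1+ (MARCO-, 24) and remaining (Other, 49) segments, where HSC stands for hepatic stellate cell.

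In the lectin pathway, soluble proteins with a collagen-like stalk bind sugars or acetylated groups on microbes and damaged cells. Ficolins bind through a fibrinogen-like domain and collectins through a C-type lectin domain. Both carry MASP proteases, which cleave C4 and C2 and so start the complement cascade. Ficolin A is known as a product of macrophages, including those of liver and spleen. COLEC10 and COLEC11 (collectin liver 1 and collectin kidney 1) circulate together, and liver is a main source of them. Stellate cells, which store vitamin A in the healthy liver and make matrix in fibrosis, express both collectin genes.

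In the RefSeq annotation of GRCm38.p6, the assembly of mm10, Fcna (gene 14133) lay at chr2:25624665-25635440, Colec10 (gene 239447) at chr15:54410774-54466360 and Colec11 (gene 71693) at chr12:28594172-28623458. RefSeq promoter windows matched 2 of the 3 genes. The 250 bases before the start site that this table uses are printed because Fcna and Colec11 were highest in different segments. Capitals mark GAGGAA in Fcna, and CAGCTG or AGATAA in Colec11, which were searched on both strands and picked with these sequences in view. The windows were chr2:25627975-25628224 and chr12:28623331-28623580, both on the minus strand. The gene positions above span all annotated transcripts, and the Fcna window lies inside that span while the Colec11 window overlaps its end.
Fcna: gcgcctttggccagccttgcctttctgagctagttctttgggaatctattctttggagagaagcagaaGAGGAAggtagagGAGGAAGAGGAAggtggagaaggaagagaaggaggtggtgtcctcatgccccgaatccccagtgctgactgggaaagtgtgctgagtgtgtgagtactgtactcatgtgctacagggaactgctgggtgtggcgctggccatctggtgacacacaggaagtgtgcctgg
Colec11: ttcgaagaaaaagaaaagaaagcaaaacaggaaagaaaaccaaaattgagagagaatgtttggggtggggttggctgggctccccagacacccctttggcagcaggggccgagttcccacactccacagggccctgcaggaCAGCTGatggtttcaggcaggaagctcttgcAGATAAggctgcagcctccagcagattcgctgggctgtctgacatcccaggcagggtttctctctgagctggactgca
GAGGAA occurred 3 times in the Fcna window and 0 times in that of Colec11. Among 32851 windows of this length, 23.3% held GAGGAA at least once and 0.429% at least 3 times. CAGCTG and AGATAA occurred once each in the Colec11 window and not in that of Fcna, and 13.0% and 9.99% of all windows held them. These matches describe the letters of the windows and are not evidence of binding.

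Values are Q3-normalized counts, which the authors scaled so that the upper quartile of the 607 genes was equal in all segments. The 607 genes had been limited by the authors to genes of HSCs, so a level is relative to that set. Because different probes measure different genes, levels were compared between segments and not between genes. Depth differed widely. The median number of counts per segment was 3675 in HSC, 8408 in MARCO+, 1639.5 in MARCO- and 209469 in Other segments, and 1 count was worth a median of 3.73, 1.68, 8.69 and 0.069 Q3-normalized counts. No value was 0, and the lowest count in shallow segments was 1, even in segments of few counts for 607 genes. A value of 1 count may therefore stand for none detected. The segment labels were checked with markers. The mean level of Marco, a scavenger receptor, in the 4 livers was 179.1 to 1042.9 in MARCO+, 13.0 to 78.9 in MARCO-, 7.46 to 24.5 in HSC and 8.93 to 27.2 in Other segments. All 13 HSC markers were higher in HSC than in Other segments in each of the 4 livers, as were 42.0% of the 607 genes. The median log2 difference of the markers was 1.90, although Des itself, which encodes desmin, stood at 1 count in 20 of 41 HSC segments. The same 13 were also higher in MARCO- than in Other segments in every liver (median 0.92), as were 296 of the 607 genes. In MARCO+ against Other segments 8 of the 13 were higher in every liver (median 0.49), as were 179 of the 607. The part of HSC RNA in the Colec10 and Colec11 levels of macrophage segments was not tested. Marco was the only 1 of 15 listed macrophage markers in the table, and hepatocyte, endothelial and cholangiocyte markers were not analysed here.

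Fcna was highest in the macrophage segments. Its mean Q3-normalized count in MARCO+ segments was 193.0, 218.9, 257.8 and 246.1 in livers 1 to 4. In MARCO- segments it was 79.2, 58.7, 69.6 and 49.7. In HSC segments it was 16.4, 17.9, 21.5 and 23.6, and in Other segments 8.09, 6.98, 11.2 and 8.39. The 4 livers thus gave the same order, MARCO+ over MARCO- over HSC over Other, and the values of no neighbouring pair of types overlapped. Fcna was 24.0-fold higher in MARCO+ than in Other segments (log2 difference 4.58 ± 0.20, SD, n = 4 livers), rank 2 of 607 genes after Marco. It was 11.1-fold lower in HSC than in MARCO+ segments (-3.47 ± 0.10) and 3.55-fold higher in MARCO+ than in MARCO- segments (1.83 ± 0.42). Against Other segments it was also 6.75-fold higher in MARCO- segments and 2.17-fold higher in HSC segments. Counts behind these values were ample in MARCO+ segments (30 to 691, median 121), but HSC segments held 1 to 25 counts (median 5), with 8 of 41 at 1 count. These segment differences were in view when the genes were chosen and are given without a test.

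Colec11 was highest in the HSC segments. Its mean was 55.0, 49.5, 37.7 and 45.4 in the HSC segments of livers 1 to 4, against 9.13, 6.91, 8.46 and 8.25 in their Other segments. MARCO+ segments had 18.9, 17.6, 11.8 and 13.5, and MARCO- segments 20.4, 13.0, 25.7 and 21.4. The HSC values lay above those of every other type and the Other values below, while MARCO+ and MARCO- values overlapped. The MARCO- values rested on few counts, with 9 of 24 segments at 1 count. With the lowest value of each segment subtracted, the log2 difference of MARCO- minus Other segments fell from 1.17 to 0.41. Colec11 was 5.19-fold higher in HSC than in Other segments (log2 difference 2.37 ± 0.27, SD, n = 4), rank 7 of 607 genes, and 2.93-fold higher in HSC than in MARCO+ segments (1.55 ± 0.11). Its counts in HSC segments ranged from 1 to 71, with a median of 13.

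Colec10 was also highest in the HSC segments, with smaller differences. Its mean was 26.7, 28.2, 25.5 and 23.3 in HSC segments and 7.91, 6.67, 7.86 and 7.32 in Other segments. MARCO+ segments gave 14.6, 13.1, 12.5 and 16.5 and MARCO- segments 12.8, 13.0, 16.2 and 14.7, so these 2 types again overlapped. The HSC values did not overlap with those of any other type. HSC segments were 3.19-fold above Other segments (log2 difference 1.67 ± 0.17) and 1.78-fold above MARCO+ segments (0.83 ± 0.26). Its level in MARCO- segments rested on very few counts, with 12 of 24 segments at 1 count, and for Colec11 with 9 of 24. When the lowest value of each segment was subtracted, Colec10 in MARCO- minus Other segments turned from 0.85 to -0.17, so no order of these types is read for it.

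**Figure D1:**
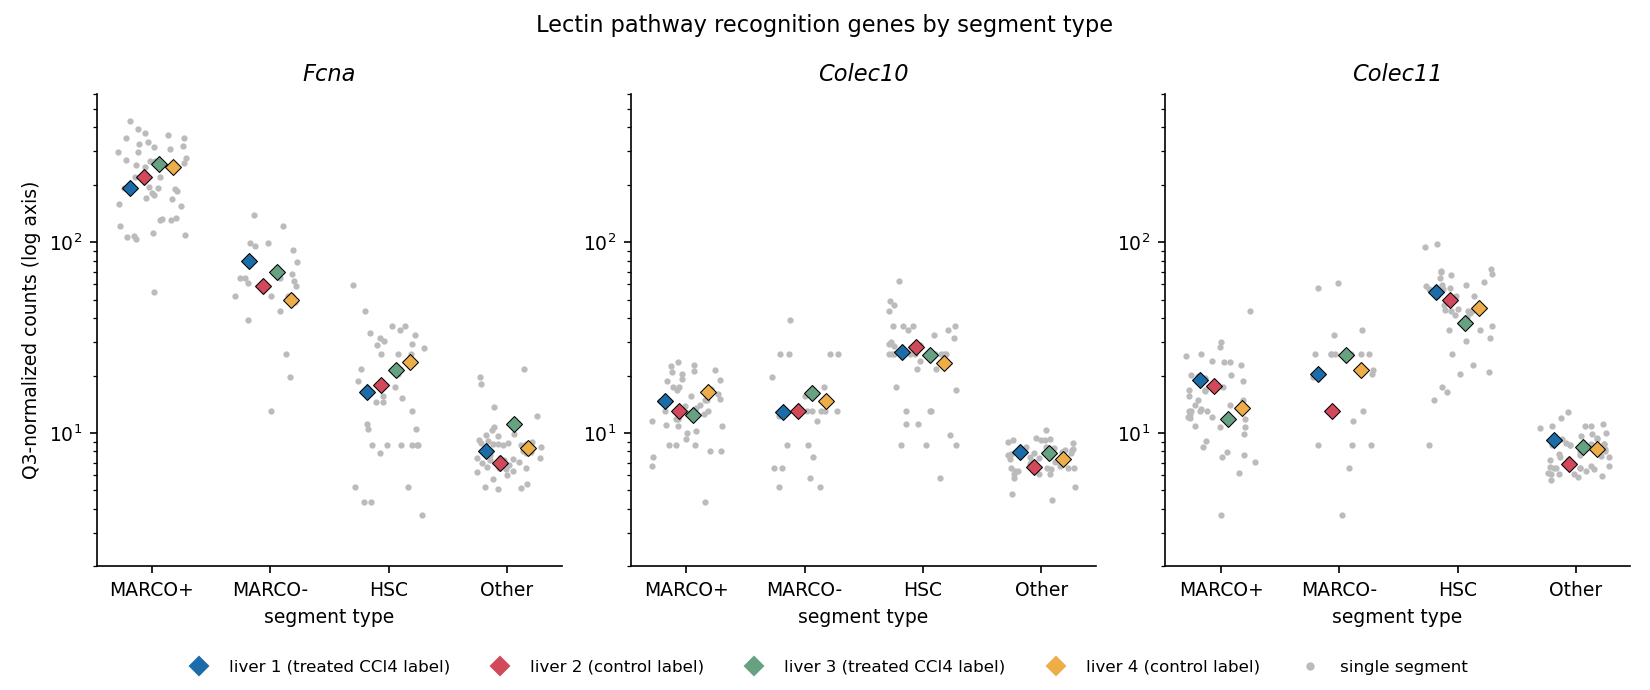
Q3-normalized counts (log axis) of Fcna, Colec10 and Colec11 by segment type. Gray points are single segments and diamonds the means of the 4 livers. Fcna falls from MARCO+ through MARCO- and HSC to Other segments, whereas the liver means of Colec10 and Colec11 are highest in HSC segments.

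Separation of 4 livers was common among these genes, and the members' counts are read beside that background. All 3 members were higher in HSC than in Other segments with no overlap between livers, as were 33.9% of the 607 genes. All 3 were also higher in MARCO+ than in Other segments, as were 21.3% of genes, and in MARCO- than in Other segments, as were 40.4%, the latter not holding for Colec10 with the lowest value of each segment subtracted. Colec10 and Colec11 were higher in HSC than in MARCO+ segments together with 30.6% of genes, and Fcna was lower together with 17.8%. Fcna alone of the members was higher in MARCO+ than in MARCO- segments, a property of 5.77% of genes. Such segments hold several cell types, and fewer cells of a type and less RNA per cell cannot be told apart in them.

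The segments were also compared inside single ROIs, where segments share their place in the tissue. Fcna was higher in the MARCO+ than in the Other segment of 43 of 43 ROIs and lower in the HSC than in the MARCO+ segment of 37 of 37. Its MARCO+ segment exceeded the MARCO- segment in 21 of 22 ROIs. Colec11 was higher in the HSC than in the Other segment of 40 of 41 ROIs and in the HSC than in the MARCO+ segment of 37 of 37. Colec10 was higher in 39 of 41 and 33 of 37. Fcna was higher in the HSC than in the Other segment of 33 of 41 ROIs and lower in 8. In the MARCO- against the Other segment, Fcna was higher in 24 of 24 ROIs, Colec11 in 20 of 24 and Colec10 in 18 of 24. For the collectins a MARCO- segment at 1 count, worth a median of 8.69, could by itself exceed its Other segment. Liver means in Other segments were 6.67 to 7.91 for Colec10 and 6.91 to 9.13 for Colec11. Of the 24 MARCO- segments, 12 stood at 1 count for Colec10 and 9 for Colec11, so these 2 ROI counts are not read as higher levels. ROIs of the same liver share an animal, and these counts are a description.

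**Figure D2:**
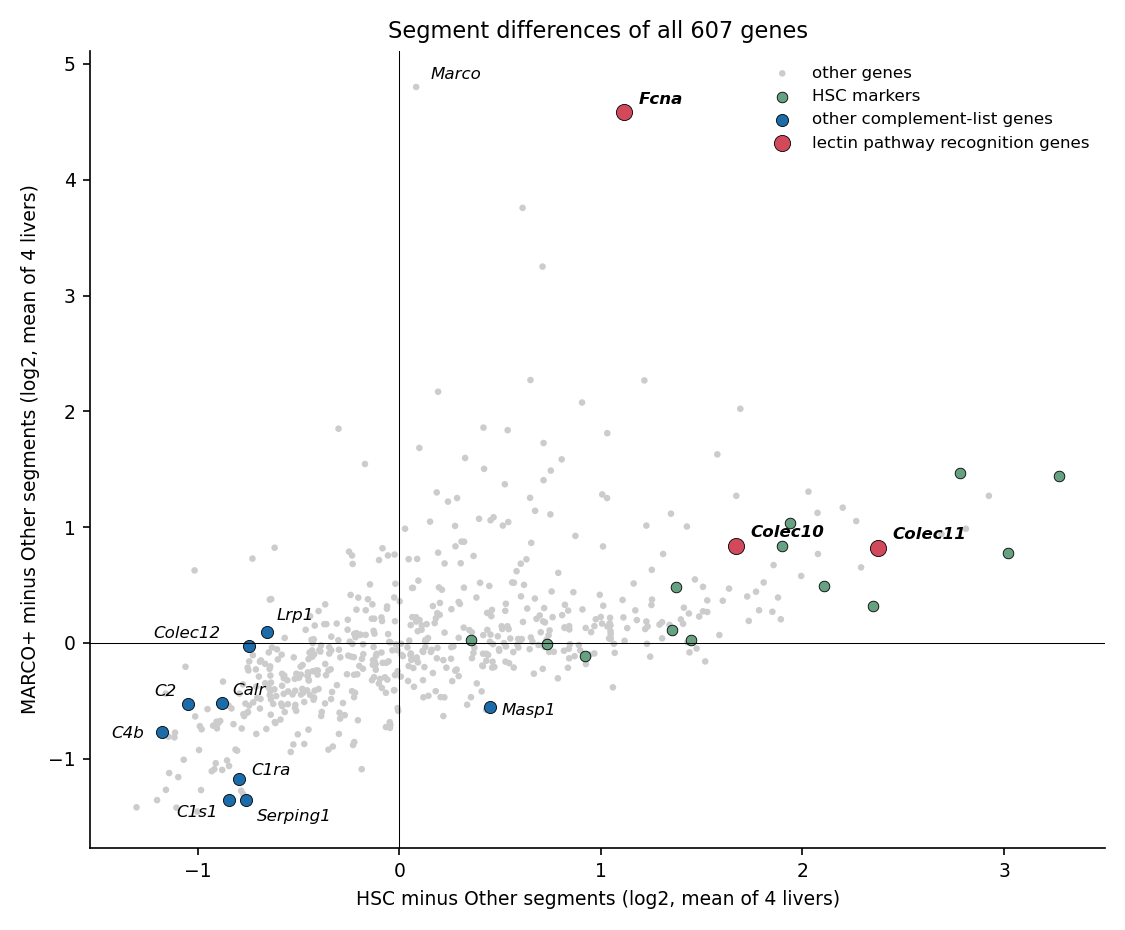
Mean log2 difference of each of the 607 genes between HSC and Other segments (horizontal axis) and between MARCO+ and Other segments (vertical axis), over 4 livers. Fcna lies beside Marco at the top, at 4.58 on the vertical axis. Colec10 and Colec11 lie to the right among the HSC markers, and most other complement-list genes lie below 0 on both axes.

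The genes whose pattern over the 16 means of liver and segment type was most like each member were named by Pearson's r, as a description. For Fcna they were Sdc3 (r = 0.96), a cell surface proteoglycan, Lgals3bp (0.96), a secreted glycoprotein that binds galectins, and Vcam1 (0.94), an adhesion molecule. Sdc3 ranged over the livers from 154.7 to 214.6 in MARCO+ and from 11.1 to 16.2 in Other segments. Marco stood at rank 27, with r = 0.83. For Colec11 they were Dcn (0.98), Col14a1 (0.97) and Bgn (0.97), and for Colec10 Dcn (0.98), Bgn (0.97) and Rgs5 (0.97). Dcn and Bgn encode small matrix proteoglycans, Col14a1 a collagen of fibril surfaces and Rgs5 a regulator of G protein signaling found in pericytes. Colec10 and Colec11 correlated with each other at 0.95, at rank 5 and rank 7. Fcna correlated with them at 0.22 and 0.06. The 16 means share their livers and the depth of their segment type.

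From a list of genes of the complement system, 9 are described here beside the 3 members. Masp1, whose protease is activated by collectins and ficolins, was 1.36-fold higher in HSC than in Other segments (log2 difference 0.45 ± 0.19) and lower in MARCO+ than in Other segments (-0.55 ± 0.16). It was the only 1 of the 9 whose livers did not overlap with HSC above Other, as held for 33.9% of the 607 genes. The other 8 were lower in HSC than in Other segments in all 4 livers, as were 34.6% of the 607 genes. Among them C4b, which encodes the substrate of the MASP and C1s proteases, had a log2 difference of -1.18 ± 0.19, and C2, which joins it in the C3 convertase, had -1.05 ± 0.19. In MARCO+ minus Other segments the classical pathway proteases C1ra and C1s1 had -1.18 ± 0.21 and -1.36 ± 0.19, and their inhibitor Serping1 had -1.36 ± 0.15. Colec12, a membrane-bound scavenger collectin, had -0.03 ± 0.13 there and -0.75 ± 0.22 in HSC minus Other segments. Calr and Lrp1, which take part in uptake of collectin-bound material, had -0.52 ± 0.13 and 0.09 ± 0.10 in MARCO+ minus Other segments. None of the 9 was higher in MARCO+ than in Other segments without overlap, whereas the 3 members were, as were 21.3% of the 607 genes. Colec10 and Colec11 ranked 58 and 62 in that difference. The median log2 difference of all genes was 0.08 in HSC minus Other and -0.04 in MARCO+ minus Other segments. It was 0.38 in MARCO- minus Other and -0.26 in MARCO+ minus MARCO- segments, beside which the MARCO- differences of the members are to be read.

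**Figure D3:**
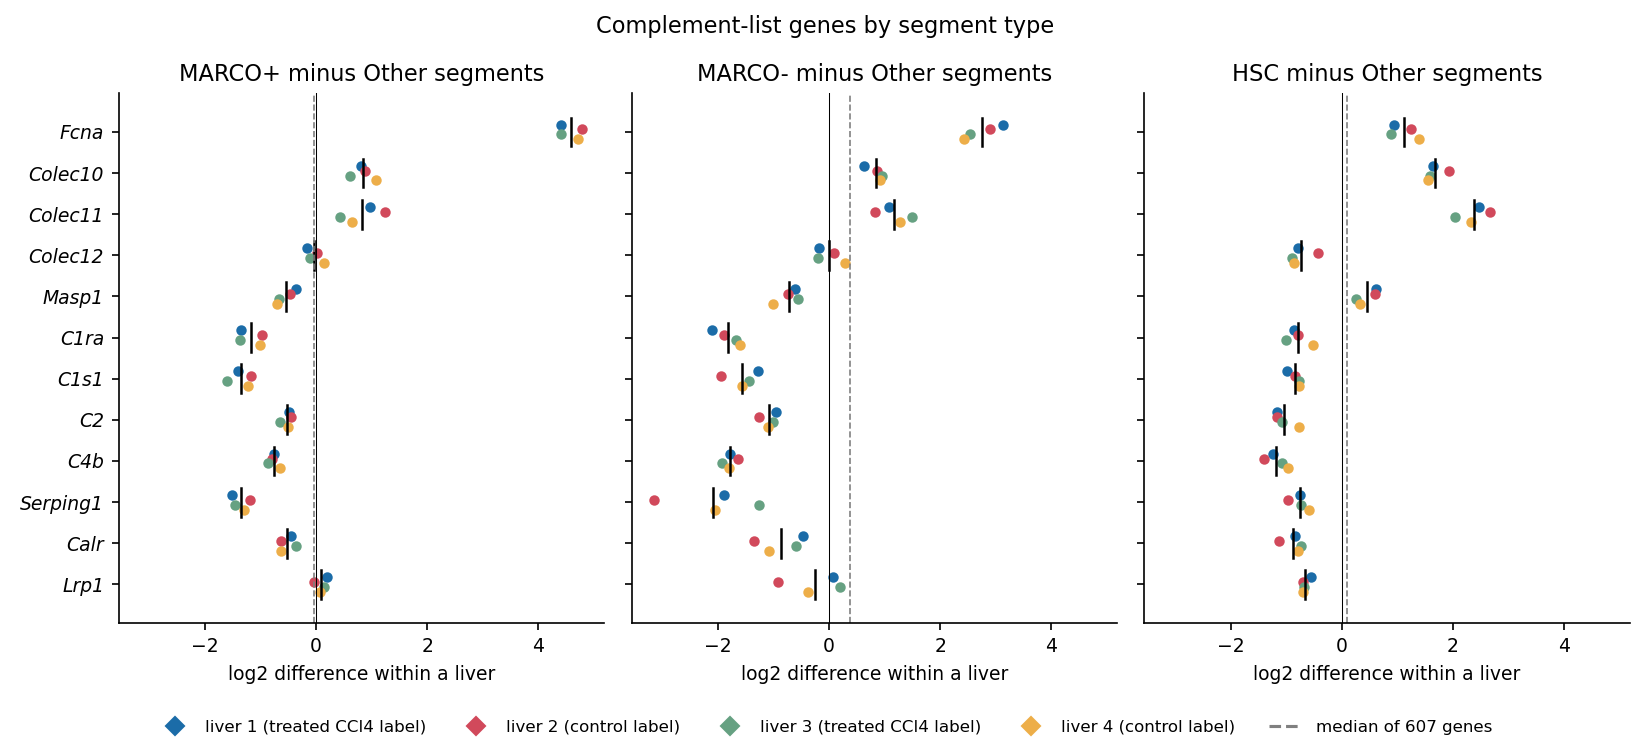
Log2 difference from Other segments of the 12 complement-list genes described in MARCO+, MARCO- and HSC segments. Points are the 4 livers, black bars their means and the dashed line the median of 607 genes. The 3 members lie above 0 in all 3 panels, and Masp1 lies above 0 in the HSC panel and below 0 in the macrophage panels.

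Whether the members differed with the MARCO class of the region was tested with limma on 1 mean per liver and class, with liver as a block and adjustment over all 607 genes. The ROI class had been set on MARCO staining, so Marco itself is not a result of this test. In MARCO+ segments, mean Fcna was 283.7, 265.0, 324.7 and 281.8 in the MARCO-high ROIs of livers 1 to 4 and 128.3, 157.4, 157.4 and 121.1 in their MARCO-low ROIs. The highest MARCO-low value was thus well below the lowest MARCO-high value. Fcna was 2.05-fold higher in MARCO-high ROIs (log2 difference 1.03, SE 0.14, adjusted p = 0.0405), in 4 of 4 livers. It was 1 of 3 genes that passed (0.494% of 607), beside Marco, which was higher, and the collagen gene Col3a1, which was lower. With any 1 liver left out the difference stayed between 0.92 and 1.15 but the adjusted p rose to 0.373 to 0.75, and it was 0.0807 with the mean of log2 values and 0.188 with the lowest value subtracted. On counts it was 8e-29 with edgeR and 7.16e-23 with DESeq2. Both used the same 4 livers, whose log2 differences were 0.75 to 1.21 (SD 0.20). These smaller values are not read as stronger evidence. The summed level of the 13 HSC markers in MARCO+ segments was 174.0 to 200.6 over livers in MARCO-high and 226.6 to 315.0 in MARCO-low ROIs, and its part in the Fcna difference was not tested. Median depth in MARCO+ segments was 11120.5 counts in MARCO-high and 7692 in MARCO-low ROIs.

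In HSC segments Fcna differed in the opposite direction. Its mean was 9.55, 12.7, 17.8 and 23.2 in MARCO-high ROIs and 23.3, 28.2, 28.0 and 24.2 in MARCO-low ROIs. Each liver was lower in its MARCO-high ROIs, liver 4 by only 0.06 on the log2 scale. The log2 difference was -0.74 (SE 0.22, adjusted p = 0.0327), and 27 genes passed (4.45%), 4 higher and 23 lower. The values were at the limit of the counts, with all 8 segments at 1 count in MARCO-high ROIs and medians of 3 counts there and 10 in MARCO-low ROIs. With edgeR the adjusted p was 0.0167. The call was lost with any 1 liver left out (adjusted p 0.0517 to 0.376, difference -1.003 to -0.486), without the liver block (0.126), with DESeq2 (0.657), with scaling to the sum of the genes (0.0788) and with the lowest value subtracted (0.155). Other measures moved with the class. The summed level of the 13 HSC markers in HSC segments was 434.6 to 673.0 over livers in MARCO-high and 825.7 to 989.8 in MARCO-low ROIs, none of the 13 being at 1 count throughout, and median depth was 3089 and 4602.5 counts. Marco, on whose staining the classes were set, had a log2 difference of 1.13 in the same segments. Its median there was 5 counts in MARCO-high and 3 in MARCO-low ROIs. The part of these measures in the Fcna difference was not tested.

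The difference between the 2 segment types was itself tested, a comparison added after the opposite directions had been seen. The MARCO-high minus MARCO-low difference of Fcna was greater in MARCO+ than in HSC segments by 1.78 on the log2 scale (SE 0.27, adjusted p = 0.000137). Fcna was the only gene of the 607 past the threshold (0.165%). Because its directions prompted the comparison, neither this nor the p is separate evidence. The adjusted p was 5.37e-05 to 0.0176 with any 1 liver left out and 0.0613, with a difference of 2.27, when the lowest value of each segment was subtracted. In MARCO- segments, where liver 2 had no MARCO-high segment and was dropped, Fcna had a log2 difference of -0.32 (SE 0.32, adjusted p = 0.637). In Other segments it was 0.17 (SE 0.09, adjusted p = 0.322), with livers 1, 2 and 4 higher and liver 3 lower in MARCO-high ROIs. Without liver 3 that value was 0.34, with an adjusted p of 0.00309.

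Colec11 passed in Other segments only. Its mean there was 7.27, 6.56, 7.83 and 7.68 in MARCO-high ROIs and 10.7, 7.46, 9.19 and 9.57 in MARCO-low ROIs, so it was lower in the MARCO-high ROIs of each liver while the ranges of the classes overlapped. The log2 difference was -0.29 (SE 0.05, adjusted p = 0.0146), and 31 genes passed (5.11%), 11 higher and 20 lower. The adjusted p was 0.0863 without liver 1, 0.0567 without liver 4, 0.0521 without the ROI whose library name gives no class, 0.069 with DESeq2, 0.157 with the lowest value subtracted and 0.755 without the liver block. The summed HSC markers in Other segments were 102.1 to 124.9 in MARCO-high and 108.7 to 161.9 in MARCO-low ROIs. Their part in the difference was not tested. In HSC segments Colec11 was 43.5, 47.1, 35.4 and 39.3 in MARCO-high ROIs and 66.4, 54.2, 41.7 and 57.7 in MARCO-low ROIs, a log2 difference of -0.39 (SE 0.21) that did not pass (adjusted p = 0.292). Whether the Other and HSC differences of Colec11 differ was not tested.

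Colec10 did not pass in any segment type. Its log2 difference between ROI classes was -0.04 (SE 0.21, adjusted p = 0.953) in HSC, -0.22 (SE 0.13, adjusted p = 0.598) in MARCO+, 0.46 (SE 0.36, adjusted p = 0.566) in MARCO- and -0.11 (SE 0.05, adjusted p = 0.31) in Other segments. In HSC segments livers 1 and 2 had opposite directions, with 18.5 in MARCO-high against 34.9 in MARCO-low ROIs in liver 1 and 33.0 against 18.5 in liver 2. Colec11 had -0.26 (SE 0.16, adjusted p = 0.599) in MARCO+ and -0.34 (SE 0.45, adjusted p = 0.735) in MARCO- segments. In MARCO- segments 0.0% of genes passed with limma (0 genes, 78 at an unadjusted p below 0.05), and edgeR called 1 gene and DESeq2 0.

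Of the other 9 complement-list genes described, 3 passed between ROI classes in Other segments, all higher in MARCO-high ROIs, where 31 of the 607 genes passed (5.11%) and 11 of them were higher. These were Serping1 (log2 difference 0.23, adjusted p = 0.0108), Calr (0.17, 0.036) and C2 (0.20, 0.0484). None of the 3 passed without the liver block (adjusted p 0.874 to 0.998), with the lowest value subtracted (0.103 to 0.162) or without liver 1 (0.0863 to 0.162). Calr and C2 were also lost without liver 3 (0.109 each) or liver 4 (0.161 and 0.242) and with edgeR (0.119 and 0.0909), where Serping1 passed. All 9 had a positive sign in Other segments, with a median of 0.06 against -0.01 over all genes, while Colec11 and Colec10 had negative ones. These signs were not tested as a set. None of the 9 passed in HSC, MARCO+ or MARCO- segments, where the lowest adjusted p was 0.273, 0.237 and 0.378. C2 in MARCO+ segments had a log2 difference of 0.54 at an adjusted p of 0.237.

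**Figure D4:**
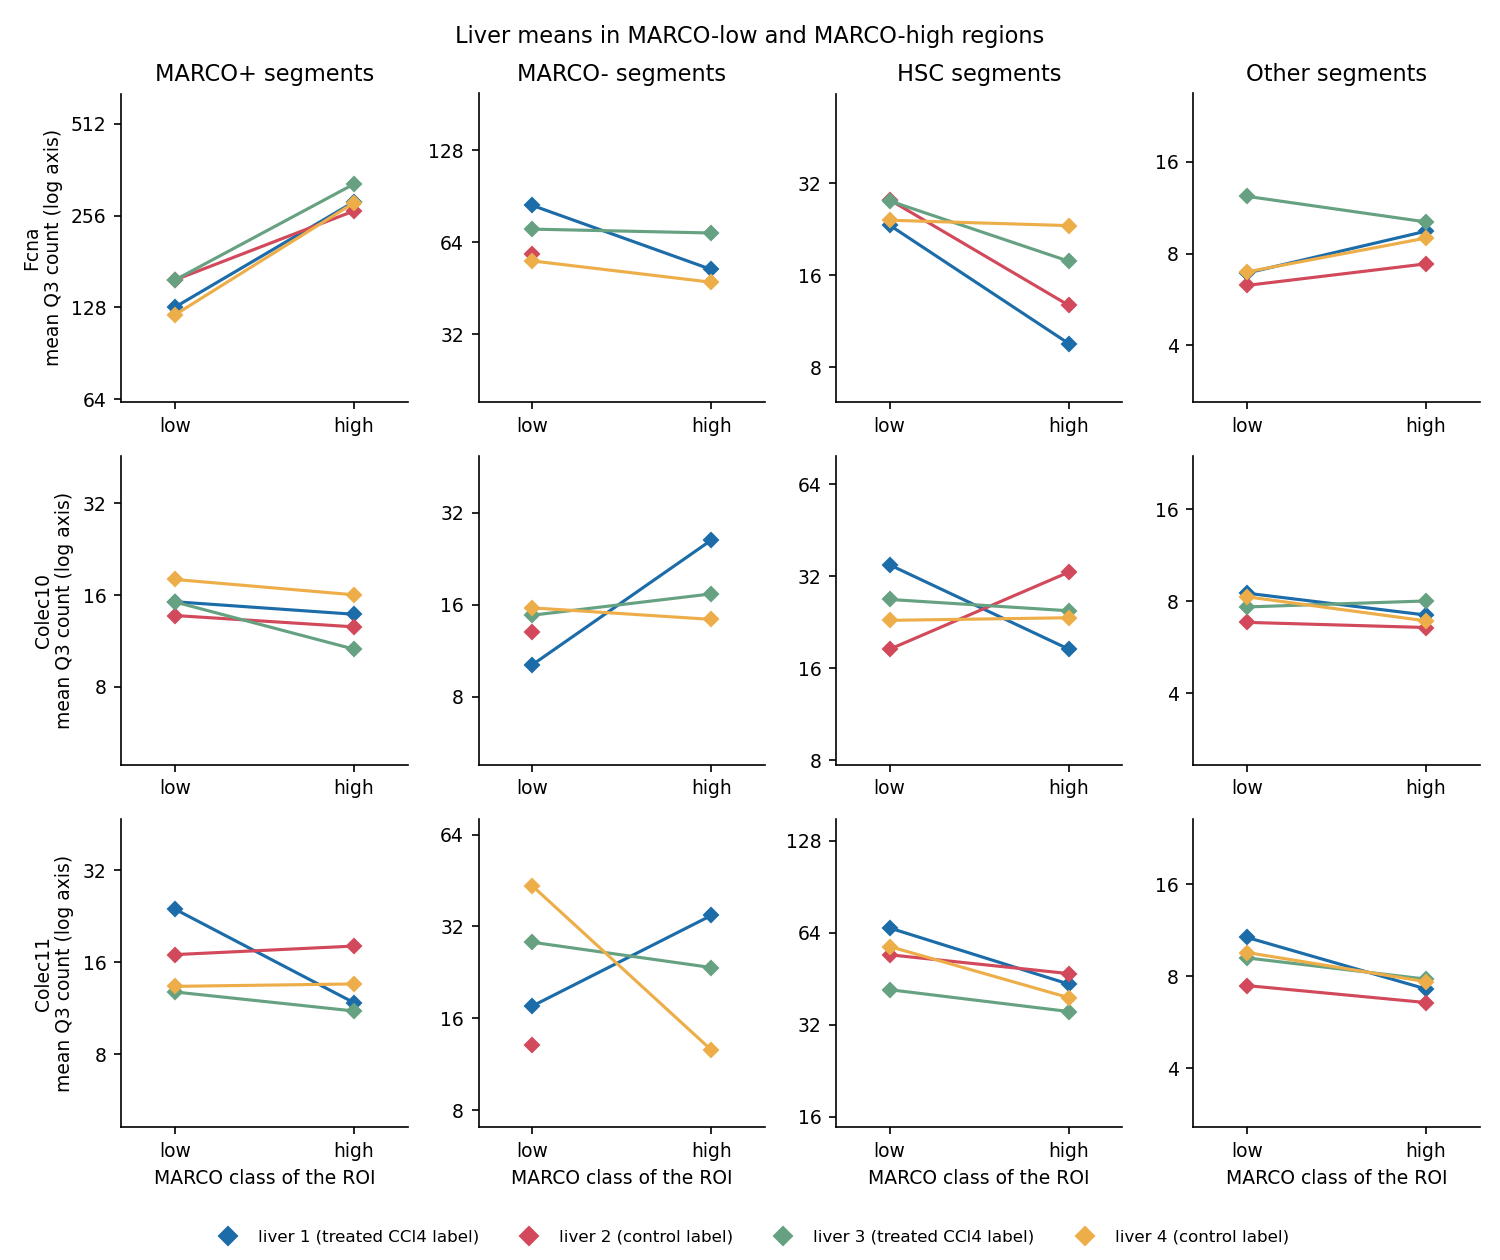
Mean Q3-normalized count per liver (log axis, the same span in each panel) in MARCO-low and MARCO-high ROIs for Fcna, Colec10 and Colec11 (rows) in each segment type (columns). Lines join the classes of a liver. In the top row all 4 lines rise in MARCO+ segments, from 121.1 to 157.4 up to 265.0 to 324.7, and fall in HSC segments, and liver 2 has no MARCO-high value in MARCO- segments.

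Within a liver, Fcna rose and fell with Marco from 1 MARCO+ segment to the next. Other genes were not compared with Marco in this way. Across the single MARCO+ segments, r between the log2 values was 0.97, 0.91, 0.95 and 0.96 for livers 1 to 4, over 12, 14, 10 and 9 segments. With the mean of each ROI class taken out, r was 0.92, 0.76, 0.88 and 0.86. The segments of a liver share an animal and a staining, and each segment's values share its depth, so r is a description. Between livers the 2 genes parted. Marco in MARCO+ segments averaged 694.5 and 1042.9 in livers 1 and 3 and 179.1 and 242.1 in livers 2 and 4, whereas Fcna averaged 193.0 and 257.8 against 218.9 and 246.1. In HSC segments r between Fcna and Marco ranged from -0.52 to 0.42, and with the mean of each ROI class taken out it was 0.37, 0.71, -0.28 and 0.48 for livers 1 to 4. Colec10 and Colec11, alike across segment types, had r of 0.66, 0.04, -0.09 and 0.79 across the HSC segments of livers 1 to 4.

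**Figure D5:**
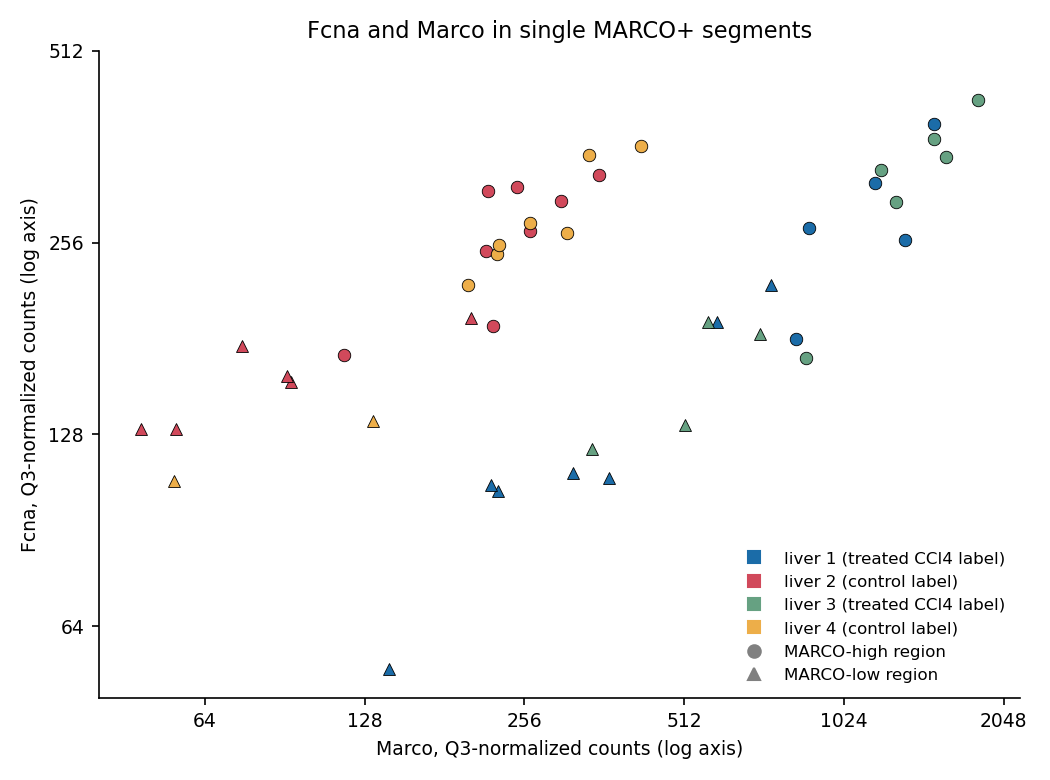
Fcna against Marco in the 45 single MARCO+ segments (log axes, Q3-normalized counts), coloured by liver, with circles for MARCO-high and triangles for MARCO-low ROIs. Within each liver the points rise together (r = 0.91 to 0.97). In MARCO-high ROIs, livers 1 and 3 lie to the right of livers 2 and 4 at overlapping heights.

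The members were last compared between the livers labelled treated CCl4 and the livers labelled control, 2 against 2, with limma on 1 mean per liver. No member passed in any segment type. In MARCO+ segments the log2 difference of Fcna was 0.10 (SE 0.17, adjusted p = 0.918), that of Colec10 -0.13 (SE 0.18, adjusted p = 0.878) and that of Colec11 -0.11 (SE 0.20, adjusted p = 0.926). In these segments 0.659% of genes passed, among them Marco, Golim4 and Mmp14, and Marco had a log2 difference of 2.24 (adjusted p = 4.59e-05). The difference between Marco and Fcna was not tested. In HSC segments Fcna had -0.20 (SE 0.24, adjusted p = 0.889), Colec10 0.09 (SE 0.23, adjusted p = 0.947) and Colec11 -0.11 (SE 0.24, adjusted p = 0.947), and 0.0% of genes passed with limma (0 genes, 37 at an unadjusted p below 0.05), while edgeR called 1 and DESeq2 0.

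In MARCO- segments the label differences were 0.31 for Fcna (adjusted p = 0.989), 0.20 for Colec10 (adjusted p = 0.989) and 0.50 for Colec11 (adjusted p = 0.989), with SEs of 0.38 to 0.39. Again 0.0% of genes passed with limma (0 genes, 29 at an unadjusted p below 0.05), and 0 with edgeR or DESeq2. In Other segments they were 0.33 (SE 0.15, adjusted p = 0.22), 0.12 (SE 0.09, adjusted p = 0.37) and 0.14 (SE 0.11, adjusted p = 0.384). There 0.0% of genes passed with limma (0 genes, 140 at an unadjusted p below 0.05) and 0 with edgeR, but DESeq2 called 115. None of the other 9 complement-list genes passed between labels in any segment type. All 9 had a negative sign in HSC, MARCO+ and Other segments, which share the same 4 livers. The 9 were not tested as a set, and no joint shift is read from their signs. Their median was -0.253, -0.3 and -0.245 there, against -0.006, -0.007 and 0.114 over all genes. In MARCO- segments 5 were positive and 4 negative. The livers, labels and whatever else differed between the mice cannot be told apart with 2 livers per label.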

How the data were processed

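Sections of 4 livers were profiled on the NanoString GeoMx platform with a whole-transcriptome probe panel, in which barcodes of bound probes are released from 1 segment at a time and sequenced. Per the study's methods, counts were filtered by segment and by gene, limited to genes of HSCs from single-cell data because of hepatocyte RNA in the segments, and normalized to the upper quartile. The submitters' processing notes name bcl2fastq (2.20.0.422) and mm10. The deposited signal values are these Q3-normalized counts for 607 genes, and the authors' 75th percentile was 26.074 in every segment. All 96513 values were whole multiples of the step of their segment (relative tolerance 1e-06), so counts were recovered by division.

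Totals per segment were 1448 to 16715 counts (HSC), 3106 to 27341 (MARCO+), 1065 to 4457 (MARCO-) and 75571 to 448875 (Other), and this limits precision for low genes. Segments were averaged within each liver and ROI class or segment type, and log2 was taken after a pseudocount of 1, so fold changes are on that scale and understate those of low genes. ROI classes were compared with limma (3.58.1, lmFit and eBayes) with liver as a block, because the same numbers mark the same animal. The deviations of the 2 ROI classes of a liver from their class means correlated over genes at 0.09 to 0.25 in HSC, 0.25 to 0.37 in MARCO+, -0.05 to 0.02 in MARCO- and 0.69 to 0.90 in Other segments. Labels were compared on 1 mean per liver. Benjamini-Hochberg adjustment ran over all 607 genes, with a threshold of 0.05. Alternatives used edgeR (4.0.16) and DESeq2 (1.42.0) on summed counts, a mixed model of single segments (lmerTest 3.1.3, lme4 1.1.37), and the other settings of the closing section. R was 4.3.3, Python 3.11.15, numpy 2.4.6, pandas 2.3.3 and matplotlib 3.10.9.

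The members, lists and tests were chosen with earlier results of these data known. Named are the members, complement-list genes, the 3 genes most like each member, and Marco, Des and other markers as checks. Genes past a threshold were also named where 5 or fewer passed, after their values were seen. Some genes that these rules name are not reported here.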

Additional observations from a re-analysis of the deposited data

Results flagged for a closer look

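The MARCO-high minus MARCO-low difference of Fcna differed between MARCO+ and HSC segments by 1.779 on the log2 scale (adjusted p = 0.000137 with limma, 4 of 4 livers higher in MARCO-high ROIs in MARCO+ segments and 4 of 4 lower in HSC segments). This comparison was added after the directions had been seen, so its p is not separate evidence.

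Among 105 groups of 4 to 10 values, 7 held 1 value that stood apart from the rest by Dixon's criterion. Chance alone gives about 1 in 20 for continuous, normally distributed values. Many of the values here come from small counts that tie, so that rate need not hold for them. For Fcna these were log2 values of 5.16 in an HSC segment of the MARCO-high ROIs of liver 2, where the next was 3.515, and of 4.248 in an Other segment of the MARCO-high ROIs of liver 1, where the next was 3.275. The mean of liver 3 in the Other segments of MARCO-low ROIs was 3.735, and the next liver was at 2.994. For Colec10 they were 4.923 in an HSC segment of the MARCO-low ROIs of liver 3, whose other 3 segments were equal at 4.759, and 5.326 in a MARCO- segment of the MARCO-high ROIs of liver 3. For Colec11 they were 3.277 in an HSC segment of the MARCO-high ROIs of liver 1, at 1 count, and 3.811 in a MARCO- segment of the MARCO-high ROIs of liver 3, whose other 4 segments were equal at 4.759.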

How the results depend on the processing

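Differences between segment types without a test kept their direction under every alternative for Fcna, with 40 of 50 alternative values within 1 SD of the livers. Ranges with 1 liver left out were 4.515 to 4.640 for Fcna in MARCO+ minus Other segments, and 2.274 to 2.489 and 1.587 to 1.715 for Colec11 and Colec10 in HSC minus Other segments. With a pseudocount of 5, Fcna was 4.10 in MARCO+ minus Other, 0.86 in HSC minus Other, -3.235 in HSC minus MARCO+ and 2.33 in MARCO- minus Other segments, while Colec10 and Colec11 were 1.31 and 1.97 in HSC minus Other, and Colec11 was 1.35 in HSC minus MARCO+ segments. With the lowest value of each segment subtracted, Fcna was 5.17, 1.37, -3.80 and 3.12 in these contrasts, and Colec10 and Colec11 were 2.13 and 2.87 in HSC minus Other segments. Fcna in HSC minus MARCO+ segments was -3.61 with the mean of log2 values (-3.607) or within ROIs (-3.609). Colec10 in MARCO- minus Other segments was -0.17 with the lowest value subtracted, and Colec11 was 0.41. Colec10 in MARCO+ minus MARCO- segments, -0.005 with the settings used above, was 0.08 with the mean of log2 values (0.078) or within ROIs (0.084), 1.52 with the lowest value subtracted, 0.041 without the ROI whose library name gives no class, and -0.066 to 0.112 with 1 liver left out. Colec11 there was 0.88 with the lowest value subtracted.

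Between ROI classes, Fcna in HSC segments was -0.70 scaled to the sum of the genes, -1.225 with the lowest value subtracted, -0.744 without the replicate block and -0.87 with DESeq2, none of which passed, and -1.003 to -0.486 with 1 liver left out. Fcna in MARCO+ segments did not pass at 1.04 with the mean of log2 values (1.039) or 1.05 with the lowest value subtracted (1.046), and ranged from 0.918 to 1.151 with 1 liver left out. The added difference of these differences was 2.27 with the lowest value subtracted. Colec11 in Other segments did not pass at -0.35 with the lowest value subtracted, -0.26 without the ROI with no class in its library name, -0.289 without the replicate block or -0.32 with DESeq2, and ranged from -0.363 to -0.215 with 1 liver left out. Fcna in Other segments ranged from 0.005 to 0.336. Colec10 changed sign in HSC segments at 0.017 scaled to the sum of the genes and at -0.237 to 0.153 with 1 liver left out, and in MARCO- segments at -0.045 with the lowest value subtracted. Colec11 in MARCO- segments was -0.987 to 0.341 with 1 liver left out. In the difference between MARCO+ and HSC segments, Colec10 was -0.487 to 0.071 and Colec11 -0.011 to 0.299. The liver block changed no other call of a member.

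No label difference of a member passed under any alternative. Colec10 in HSC segments was -0.015 with the lowest value subtracted, -0.366 in MARCO-high ROIs alone and -0.019 in the mixed model. Colec11 in MARCO+ segments was 0.21 in MARCO-low ROIs alone, 0.01 with edgeR and 0.023 with DESeq2. In MARCO-low ROIs alone, Colec10 and Colec11 in MARCO- segments were -0.20 and -0.10. Ranges with 1 liver left out that spanned 0 were -0.475 to 0.068 for Fcna and -0.346 to 0.130 for Colec11 in HSC segments, and -0.026 to 0.218, -0.302 to 0.045 and -0.342 to 0.125 for Fcna, Colec10 and Colec11 in MARCO+ segments.

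Numbers of genes called between ROI classes ranged over the alternatives from 0 to 43 in HSC, 0 to 33 in MARCO+, 0 to 60 in MARCO- and 0 to 83 in Other segments, and from 0 to 1 for the added difference. Between labels they ranged from 0 to 1, 1 to 29, 0 to 17 and 0 to 115. The causes of these changes were not tested. HSC and MARCO- segments of few counts limit what can be said of all 3 genes there, 4 livers limit every p, and a label fit with 1 liver left in a pair assumes that it varies like the other pair.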
